A study of Homo sapiens with 6 samples.

Results

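The integrated stress response is the programme by which a cell under stress slows most protein synthesis and changes its transcription. Its transcription factors and feedback genes were followed in AGS, a long-established line of human gastric adenocarcinoma cells, after treatment with indomethacin, an inhibitor of cyclooxygenases that belongs to the non-steroidal anti-inflammatory drugs. The set held 10 genes of the 60604 read, found by symbol: ATF4, ATF5, CEBPB, CEBPG, DDIT3, ATF3, JDP2, NUPR1, TRIB3 and PPP1R15A. By its title the series concerns sirtuin 3, a deacetylase of mitochondria, as a target that such drugs share. Total RNA was sequenced in 3 control libraries, labelled with 0 mM indomethacin and no time, and 3 libraries labelled with 0.5 mM for 24 h. All 6 came from the same line, with no genotype or other agent named, and nothing in the labels says that the 3 libraries of a group were separate cultures. P-values therefore measure the spread between these libraries, which may be technical.

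In this response a kinase that senses amino acid shortage, unfolded protein, heme lack, mitochondrial distress or viral RNA phosphorylates the translation initiation factor eIF2. Most mRNAs are then translated less, while a few with short reading frames ahead of the coding sequence, ATF4 among them, are translated more. ATF4 is a basic leucine zipper (bZIP) factor that pairs with members of the C/EBP family and switches on genes of amino acid supply, further bZIP factors and the feedback genes that bring the response to an end.

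The libraries held 17535435 to 23221077 counts, with 20983189 or more in each control library and 20094302 or fewer in each indomethacin library. Mitochondrially encoded genes took 22.8% to 26.8% of counts in control and 16.7% to 19.7% in indomethacin libraries, and in a fit without those genes 9 of the 10 genes were again called higher and 0 lower. All 5 epithelial markers checked (EPCAM, KRT8, KRT18, KRT19, CLDN4) were above 1 CPM (a library's counts scaled to a total of 1000000) in both groups, as were 5 of 9 gastric and gut lineage markers, with MUC5AC and TFF3 below it in both. Several lineage markers were not level between groups. TFF1 was at 0.774 and 25.1 CPM in control and indomethacin libraries and TFF2 at 0.0454 and 1.94 CPM. GATA4 was at 71.6 and 28.2, SOX9 at 111 and 59.6, CDX2 at 25.8 and 9.71 and GATA6 at 23.1 and 14.7 CPM. HNF4A was near level, at 43.7 and 42.3 CPM. Among the epithelial markers, EPCAM was at 285 and 178, KRT8 at 1670 and 1140 and CLDN4 at 99.4 and 323 CPM. KRT18 was at 720 and 850 and KRT19 at 637 and 588 CPM. All 4 leukocyte and 3 endothelial markers were under 1 CPM in both groups, and CDH5 was at 0 in the control libraries. Among 4 fibroblast markers, COL1A1 and PDGFRA were above 1 CPM, and the summed level of the 4 was 39.2 to 46.6 CPM in control and 14.1 to 19.8 CPM in indomethacin libraries. The lower sum came from PDGFRA (37.6 and 6.04 CPM), while COL1A1 went the other way (4.92 and 10.0 CPM), and DCN and COL1A2 had 0 counts in control. The part of these markers in the results was not tested. In RNA from a whole culture, fewer cells that express a gene and less of its RNA per cell cannot be told apart.

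The leader is the stretch of mRNA ahead of the coding sequence. Since several of these genes are known for upstream reading frames there, the counts that follow describe the set and are not independent of how it was put together. In the GENCODE 29 transcript taken for each gene (the principal, best supported and then longest), 8 of the 10 leaders held at least 1 upstream ATG, against 52.7% of 18963 protein-coding genes. In 4 of the 10, ATF4, ATF5, DDIT3 and ATF3, an upstream reading frame ran past the coding start in another frame, against 17.4% of all genes. The ATF4 leader, 882 bases long, held 7 upstream ATGs, and those of CEBPB and JDP2 held 0. All leaders of the set but that of DDIT3 (180 bases) were longer than the median of 182 bases over all genes. A longer leader has more room for an ATG, and the shares were not compared at like length. Other transcripts of a gene were not counted, so these values, and the overlapping frame of ATF4, hold for the transcript taken only. For some genes known as translationally regulated, an upstream start is printed as read in the transcript taken. Whether it is the start known for that regulation was not checked. Each has 9 bases before and 4 after the ATG, which is in capitals.
ATF4, 63 codons, overlapping the coding start: attctctagATGgccg
ATF5, 59 codons, overlapping the coding start: gctgcagccATGgagt
DDIT3, 34 codons, ending before it: gagcgtatcATGttaa
PPP1R15A, 26 codons, ending before it: gagggtgagATGaacg
RNA counts do not measure how these frames are read.

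The 250 bases ahead of each RefSeq start (GRCh38.p14) were searched for 5 motifs on both strands, and 9 of the 10 genes had such a window, all but NUPR1. The composite site of ATF4 and C/EBP factors (TGATGNAA) was found ahead of a start of ATF3, CEBPG and JDP2, against 3.89% of 27305 genes. Each of these 3 had several windows, and a gene with more windows has more room for a match. Of all 35116 windows 3.14% held this site. The AP-1 site (TGACTCA) was found for DDIT3 and ATF5 (5.19% of genes) and a loose C/EBP motif (TTGCNNAA) for ATF5 and PPP1R15A (11% of genes). PPP1R15A also held the cyclic AMP response element, TGACGTCA (2.03% of genes). The ER stress element (CCAAT, 9 bases, then CCACG) was found letter for letter in 0 of the 9 (0.0916% of genes). The DDIT3 windows held ccaatgccggcgtgccact, which has that spacing and differs in its last letter. No base lay in 2 matches. A match is a run of letters, not a shown binding site. The composite and AP-1 matches are printed with the bases around them and the match in capitals, 5′ to 3′ on the gene's strand, to show how they differ between genes. The starts they precede all lie inside the span of the gene as counted.
ATF3, chr1:212565205-212565234, plus strand: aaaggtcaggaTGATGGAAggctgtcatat
CEBPG, chr19:33374060-33374089, plus strand: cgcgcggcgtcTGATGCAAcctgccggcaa
JDP2, chr14:75427995-75428021, plus strand: atagccggggcTGATGCAAcccgtccc
DDIT3, chr12:57520735-57520764, minus strand: gcgcgcgcaTGACTCAcccacctcctccgt
ATF5, chr19:49928707-49928736, plus strand: ggagagtgctgTGACTCAtgctggactcta
The PPP1R15A promoter is shown whole since it held both the C/EBP motif, 147 bases before the start, and a cyclic AMP response element, 58 bases before it, both in capitals.
PPP1R15A, chr19:48872171-48872420, plus strand: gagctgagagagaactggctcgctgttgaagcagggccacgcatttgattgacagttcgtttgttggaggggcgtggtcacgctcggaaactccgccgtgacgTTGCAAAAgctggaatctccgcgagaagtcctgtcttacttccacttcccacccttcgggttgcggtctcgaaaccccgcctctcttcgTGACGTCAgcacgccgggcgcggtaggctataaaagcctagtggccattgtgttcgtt

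Of the 10 genes, 9 were higher with indomethacin, at a Benjamini-Hochberg adjusted p under 0.05 by edgeR's quasi-likelihood test over 17200 genes, and the 1 other, JDP2, was not called. Among all genes tested 61.6% were called, 30.6% higher and 31.0% lower. The rises ran from 1.75-fold for ATF4 to 23.6-fold for TRIB3, with a median log2 fold change of 2.30 over the 10, against 0.04 over all genes tested. In the same 9 genes every indomethacin library lay above every control library, as in 33.7% of all genes tested, and JDP2 did not overlap either, with 67.0% of all genes apart in one direction or the other. Log2 fold changes of 2 or more with a call were found for 6 of the 10 (TRIB3, DDIT3, ATF3, PPP1R15A, NUPR1 and CEBPB) and for 5.70% of all genes. TRIB3 is in each of these counts and in the median, but it passed the filter on low counts through the indomethacin libraries alone. A difference was thus built into its passing, and it adds no support to them. Levels are CPM scaled by TMM (edgeR's trimmed mean of M-values), and groups are given as mean ± SD (n = 3).

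**Figure D1:**
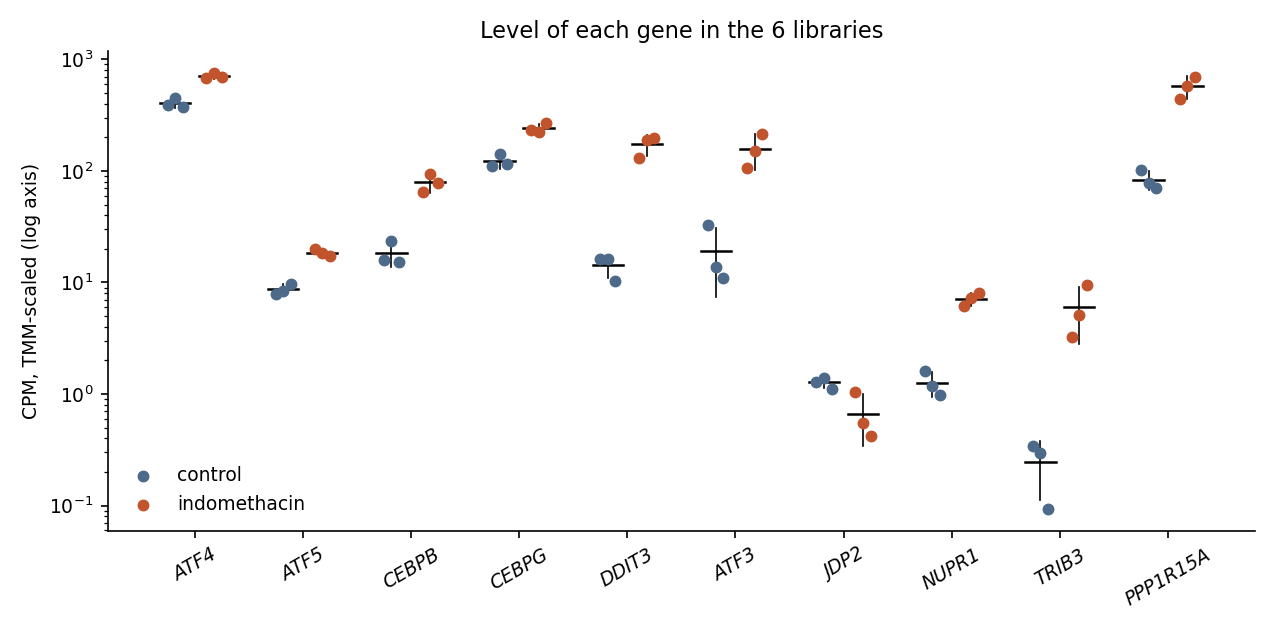
Level of each of the 10 genes in CPM (log axis) in the 3 control and 3 indomethacin libraries, with a line at the mean and a bar of ± 1 SD (n = 3). For 9 genes the indomethacin libraries lie above the control libraries, and for JDP2 below, at 0.42 to 1.04 against 1.12 to 1.40 CPM.

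ATF4 (ENSG00000128272, chromosome 22, 39519695 to 39522683), the central activator, had the highest mean CPM of the set in both groups. In indomethacin library 3 PPP1R15A was above it, with 11666 counts against 11521. Its level was 387, 455 and 376 CPM in control libraries 1, 2 and 3 and 677, 762 and 691 CPM in the indomethacin libraries. The groups did not overlap, and libraries of a group differed by little beside the distance between groups. The log2 fold change of 0.81 (SE 0.12, adjusted p = 3.7e-05 by edgeR) was the smallest of the 9 rises, and 22.5% of all genes tested had a higher one.

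ATF5, a related bZIP factor that is linked to the mitochondrial stress response, was far less abundant. It stood at 7.93, 8.34 and 9.74 CPM in control and 19.8, 18.4 and 17.3 CPM in indomethacin libraries, again with no overlap. It rose 2.14-fold (log2 fold change 1.09, SE 0.14; edgeR adjusted p = 1.2e-05). Its exons, on chromosome 19 from 49928702 to 49933935, share 564 of 2892 bases with NUP62 on the other strand, which went from 66.2 ± 8.99 to 35.6 ± 0.115 CPM and fell by 0.89 on the log2 scale. They also share 75 bases with IL4I1 and 74 with MIR4751, which had 5 and 0 counts over the control libraries.

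The C/EBP partners rose by unequal amounts. CEBPB, whose mRNA yields activating forms and a shorter inhibitory one, went from 16.0, 23.6 and 15.3 CPM to 64.6, 94.5 and 77.3 CPM. The second library was the highest of each group. Its log2 fold change was 2.11 (SE 0.18, edgeR adjusted p = 2.1e-07). CEBPG, a small family member without an activation domain that forms dimers with ATF4, was more abundant, at 110, 142 and 115 CPM in control and 232, 225 and 269 CPM in indomethacin libraries. It rose 1.98-fold (0.99, SE 0.12; edgeR adjusted p = 9.1e-06). CEBPB is a single exon on chromosome 20 (50190830 to 50192668), of which 231 bases are shared with its antisense gene CEBPB-AS1, with 37 counts in control and 48 in indomethacin libraries.

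DDIT3 encodes CHOP, a bZIP factor that ATF4 induces and that is known for its part in cell death under lasting stress. Its counts were 334, 378 and 222 in control and 2746, 3847 and 3318 with indomethacin, or 16.3, 16.1 and 10.4 against 130, 191 and 199 CPM. The lowest indomethacin library, the first, was several times above the highest control. The rise was 12.1-fold (log2 fold change 3.60, SE 0.20; edgeR adjusted p = 3.2e-09), and 1.34% of all genes tested had a higher log2 fold change.

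The DDIT3 value carries a limit from its place in the genome. The gene lies on the minus strand of chromosome 12 (57516588 to 57521737), and 518 of its 1307 exonic bases are shared with other genes, 355 of them with MARS1, the methionyl-tRNA synthetase, and 58 with MBD6, both on the plus strand. Bases that genes share gave the contained gene no counts in these tables. Of 195 genes with at least 200 exonic bases, all of them inside exons of a gene on the opposite strand that had at least 3000 counts, 195 were at 0 counts in every library, as were 70 of 70 inside exons of a gene on the same strand. If the same holds for DDIT3, its counts come from the other 789 bases. The strand setting of the counting is not given in the sources used here. Without strand, reads of MARS1 and DDIT3 cannot be told apart in the 355 bases they share. MARS1 itself rose, from 202 ± 32.7 to 350 ± 7.71 CPM (0.79, SE 0.12; edgeR adjusted p = 6.5e-05), and MBD6 from 4.62 ± 0.161 to 14.2 ± 1.70 CPM (1.61, edgeR adjusted p = 1.1e-06). The ratio of DDIT3 to MARS1 counts was 0.0923, 0.0673 and 0.0549 in control and 0.378, 0.552 and 0.555 in indomethacin libraries, a 6.97-fold difference.

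ATF3 and JDP2 are close relatives that act mainly as repressors at AP-1 and cyclic AMP response sites, and of the pair ATF3 was called and JDP2 was not. ATF3, an early stress gene, was at 32.5, 13.9 and 10.9 CPM in control and 106, 150 and 215 CPM in indomethacin libraries. Control library 1 was above the other control libraries but below every indomethacin library, and without it the log2 fold change was 3.60 in place of 3.04 (SE 0.34, edgeR adjusted p = 3.4e-06). JDP2 was low, with 26, 33 and 24 counts in control and 22, 11 and 7 counts in indomethacin libraries, and 3 counts correspond to 0.129 to 0.171 CPM. Its level was 1.27, 1.40 and 1.12 CPM against 1.04, 0.545 and 0.420 CPM. The groups did not overlap, but the log2 fold change of -0.89 (95% interval -1.73 to -0.05) did not pass (edgeR adjusted p = 0.063). It passed with limma-voom (-0.96, adjusted p = 0.046) and without indomethacin library 1 (-1.39, edgeR adjusted p = 0.015), within a range of 0.015 to 0.18 over 14 alternatives. ATF3 spans chromosome 1 from 212565334 to 212620777 and JDP2 chromosome 14 from 75427716 to 75474111.

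NUPR1, a small chromatin-bound stress protein that ATF4 is known to induce, was low in control. It had 33, 28 and 21 counts there and 131, 145 and 135 with indomethacin, or 1.62, 1.19 and 0.984 against 6.21, 7.19 and 8.09 CPM. The groups were well apart at these low counts. It rose 5.66-fold (log2 fold change 2.50, SE 0.25; edgeR adjusted p = 1.0e-06). It lies on the minus strand of chromosome 16 (28532708 to 28539008), and 909 of its 5508 exonic bases are shared with a gene without symbol that had 3 and 4 counts in the 2 groups.

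**Figure D2:**
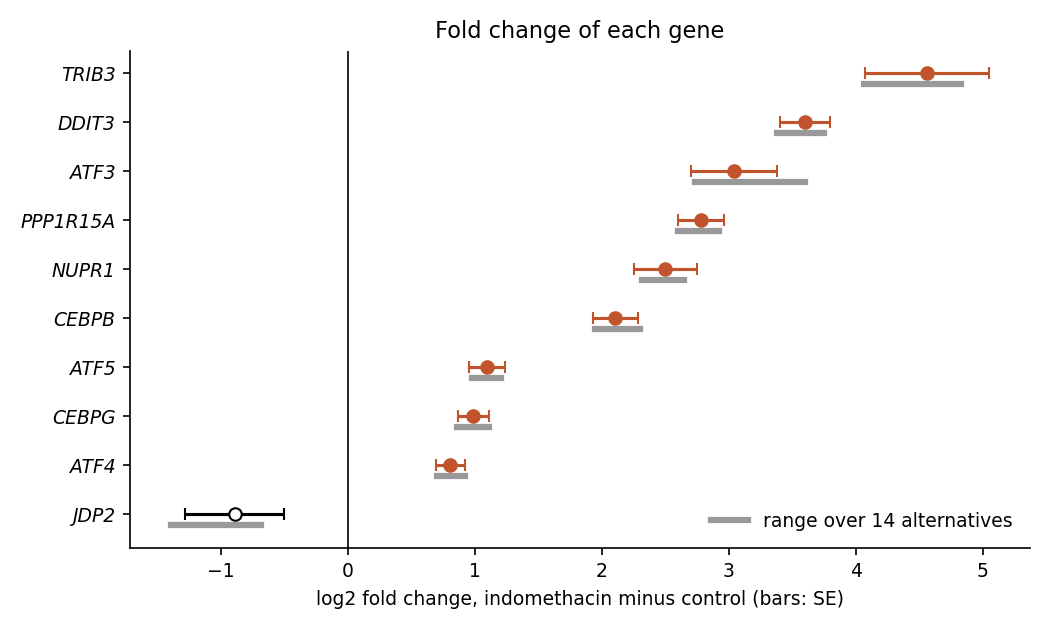
Log2 fold change (indomethacin minus control) of each gene with its SE, and as a grey bar the range over 14 alternatives of test, scaling, filter and libraries. Filled points passed an edgeR adjusted p of 0.05, and JDP2, at -0.89, is the open point.

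The feedback genes were among the strongest rises. TRIB3, a pseudokinase that binds ATF4 and CHOP and holds them back, was nearly absent from control, with 7, 7 and 2 counts, and had 69, 104 and 158 counts with indomethacin. This is 0.343, 0.298 and 0.0937 CPM against 3.27, 5.16 and 9.47 CPM, and the third control library was below the level of 3 counts. The indomethacin libraries differed among themselves by more than those of most other genes of the set, and all lay above the controls. The log2 fold change of 4.56 (SE 0.49, edgeR adjusted p = 2.2e-06) was 4.06 without indomethacin library 3. TRIB3 passed the filter on low counts through the indomethacin libraries alone, with 0 control libraries over the limit of 0.487 CPM, so a difference was built into its passing. The other genes cleared the limit in all 6 libraries, except JDP2 in 1 indomethacin library.

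PPP1R15A (GADD34), the stress-induced subunit that brings protein phosphatase to eIF2 and restores translation, had the second highest mean CPM of the set with indomethacin. Its level was 102, 77.9 and 70.4 CPM in control and 437, 582 and 699 CPM in indomethacin libraries. The groups were far apart, and the rise was 6.86-fold (log2 fold change 2.78, SE 0.18; edgeR adjusted p = 1.8e-08). The gene lies on chromosome 19 from 48872421 to 48876058, and no other gene shares its exons. TRIB3 lies on chromosome 20 from 362835 to 397559, also with no shared base.

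Libraries of a group did not vary alike for all genes. In control, library 3 was the lowest for 8 of the 10 genes and the highest for ATF5, while library 1 was the highest for 5 (DDIT3, ATF3, NUPR1, TRIB3 and PPP1R15A). With indomethacin, library 1 was the lowest for 7 genes, and library 3 was the highest for 6, which were those 5 and CEBPG. ATF5 and JDP2 had the reverse order there, highest in library 1 and lowest in library 3. These are ranks of genes read in the same libraries, given without a test.

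Levels were set in order per kilobase of exon that no other gene shares (CPM per kb). In control ATF4 came first at 155 ± 16.4 CPM per kb, 5.16 times the next, CEBPG at 30.1 ± 4.21, whose range overlapped that of PPP1R15A at 27.2 ± 5.45. DDIT3 (18.1 ± 4.26, or 10.9 ± 2.57 over its full exon length) overlapped CEBPB (11.4 ± 2.89), and ATF3 (4.73 ± 2.90) overlapped ATF5 (3.85 ± 0.422). NUPR1 (0.275 ± 0.0700) and JDP2 (0.203 ± 0.0225) overlapped, and TRIB3 was last at 0.0744 ± 0.0403. With indomethacin ATF4 stayed first at 272 ± 17.5 CPM per kb, 1.24 times DDIT3 at 220 ± 47.6, and their ranges were apart. DDIT3 overlapped PPP1R15A (187 ± 42.9), and over its full exon length, an alternative chosen after seeing the data, it was at 133 and came after it. CEBPG (59.7 ± 5.76), CEBPB (49.0 ± 9.35) and ATF3 (38.9 ± 13.7) followed, each overlapping the next, then ATF5 at 8.21 ± 0.543. TRIB3 moved from the last place to 1.81 ± 0.966, overlapping NUPR1 at 1.56 ± 0.205, and JDP2 was last at 0.107 ± 0.0529.

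**Figure D3:**
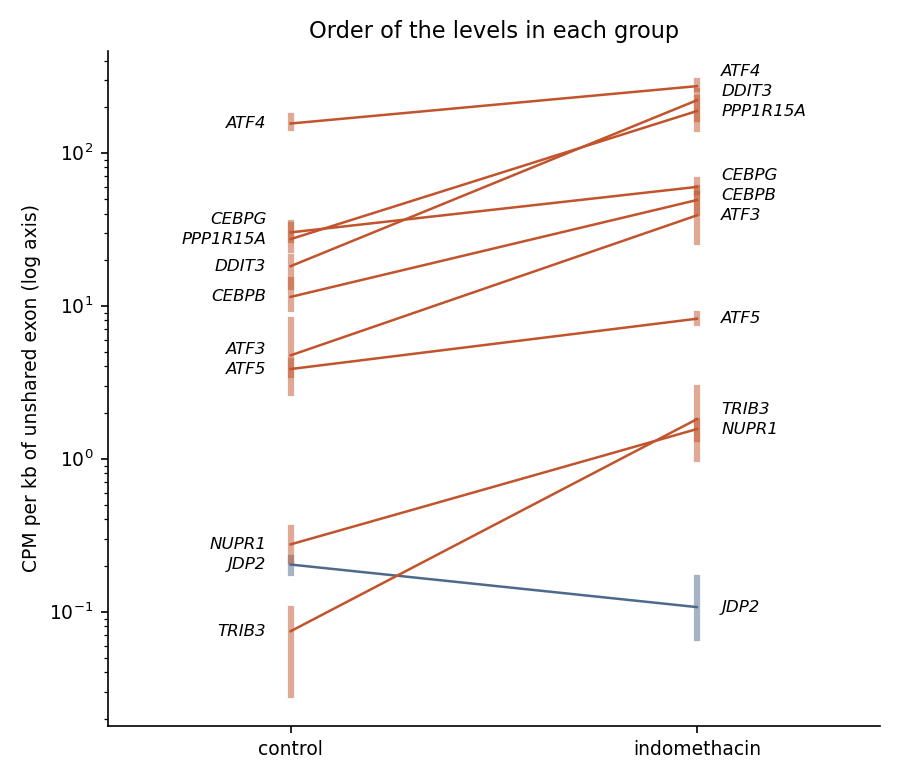
Mean level of each gene per kilobase of unshared exon (CPM per kb, log axis) in control and indomethacin libraries, with a thick bar from the lowest to the highest of the 3 libraries. DDIT3 and TRIB3 change places with other genes, from 18.1 to 220 (10.9 to 133 over full exon length) and from 0.0744 to 1.81 CPM per kb, and JDP2 (blue) is the lowest with indomethacin.

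Ratios of genes within a library do not depend on scaling between libraries, and 6 were compared. With 3 libraries a group the smallest p that an exact permutation test (two-sided) allows is 0.1, and the exact test gave p = 0.1 for all 6 (adjusted p = 0.1 over the 6), with no overlap between the groups. PPP1R15A was set against PPP1R15B, the constitutive subunit of the same phosphatase. There were 0.731, 0.448 and 0.461 PPP1R15A counts per PPP1R15B count in control and 1.21, 1.57 and 1.53 with indomethacin. PPP1R15B rose too, from 156 ± 17.3 to 397 ± 53.4 CPM (log2 fold change 1.35), and the inducible gene went from the lower to the higher count of the pair.

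The ratio of TRIB3 to TRIB1, another Tribbles gene, was 4.91 times as high with indomethacin, but TRIB3 stayed far below. There were 0.0138, 0.0151 and 0.00432 TRIB3 counts per TRIB1 count in control and 0.0297, 0.0474 and 0.0756 with indomethacin. The control ratios rest on 7, 7 and 2 TRIB3 counts. The log2 difference of 2.30 was 1.72 without control library 3 and 2.63 without indomethacin library 1. The ratio of ATF3 to JDP2 went from 25.6, 9.91 and 9.71 to 101, 276 and 514. It rests on 7 to 22 JDP2 counts in the indomethacin libraries, and its log2 difference of 4.17 was 4.80 without indomethacin library 1, a shift of over 1.5-fold. For CEBPB to CEBPG it was 0.146, 0.167 and 0.133 in control and 0.278, 0.420 and 0.288 with indomethacin, a 2.18-fold difference. The ratio of ATF4 to CREB1 was 1.71 times as high. CREB1 is a bZIP factor of cyclic AMP signalling, at 48.7 ± 3.01 and 49.8 ± 2.90 CPM, and its log2 fold change of 0.03 (95% interval -0.19 to 0.26) did not pass and changed sign under 5 of 14 alternatives.

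**Figure D4:**
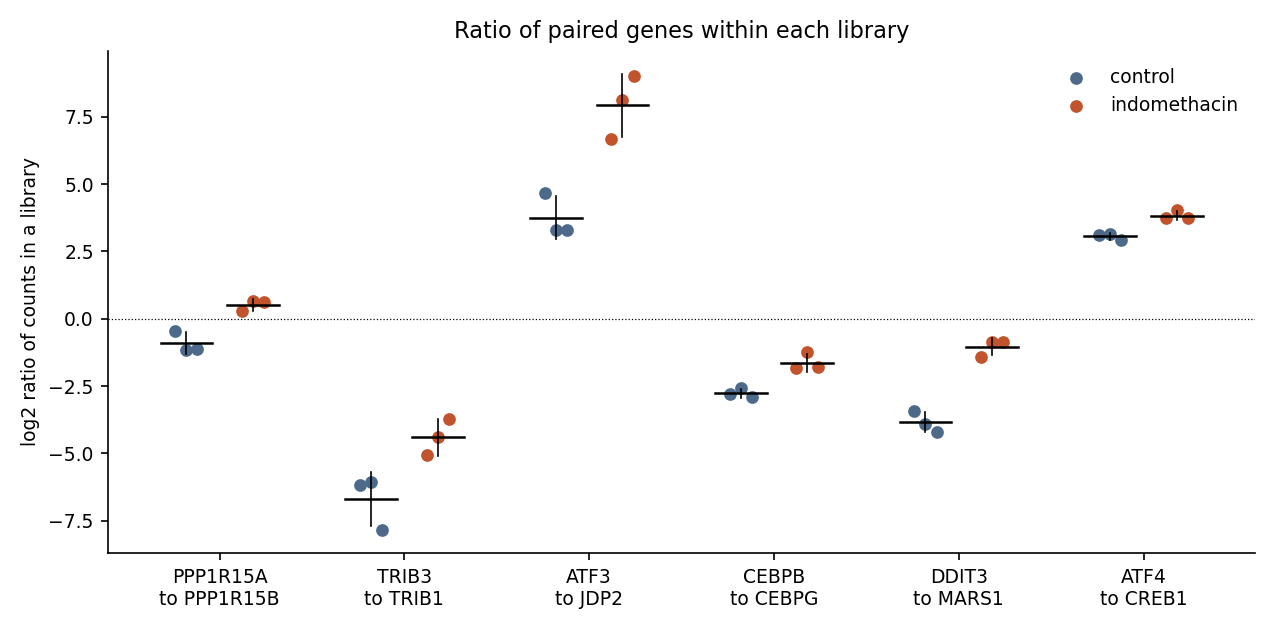
Log2 ratio of the counts of 2 genes within each library, for 6 pairs, with the mean and ± 1 SD of the 3 control and 3 indomethacin libraries. In each pair the indomethacin libraries lie above the controls, with differences of 0.78 (ATF4 to CREB1) to 4.17 (ATF3 to JDP2) on the log2 scale.

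Upstream of ATF4, the eIF2 kinases did not move together. Of 8 kinases and regulators tested, 1 was higher and 4 lower (median log2 fold change -0.37). With 61.6% of all genes tested called, 30.6% higher and 31.0% lower, 5 of 8 called is near the background. The 1 that rose was EIF2AK3 (PERK), the kinase of ER stress, from 26.7 ± 2.89 to 60.4 ± 9.24 CPM (1.18, edgeR adjusted p = 3.5e-06). EIF2AK4 (GCN2), the sensor of uncharged tRNA, fell from 115 ± 8.26 to 51.4 ± 6.23 CPM, and EIF2AK2 (PKR), which senses double-stranded RNA, and EIF2AK1 (HRI), which senses heme lack, had log2 fold changes of -0.85 and -0.76. OMA1, the mitochondrial protease that relays distress to HRI, fell by 0.45 on the log2 scale (edgeR adjusted p = 0.029), a call that was lost under 3 of 14 alternatives: upper-quartile factors, without control library 2 and without indomethacin library 3 (highest adjusted p = 0.098). These are mRNA levels and say nothing of kinase activity.

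Of 12 genes for eIF2, its exchange factor eIF2B and the phosphatase, 2 were higher and 6 lower (median -0.36), so that 8 of 12 were called, near the 61.6% of all genes. PPP1R15B and EIF2S2 (0.45) rose. The eIF2B subunit EIF2B3 fell from 23.4 ± 0.817 to 9.86 ± 0.617 CPM (-1.24), and the catalytic phosphatase subunits PPP1CC and PPP1CA, which PPP1R15A recruits, had log2 fold changes of -1.08 and -0.86, while PPP1CB was at 91.0 ± 5.19 and 88.4 ± 8.45 CPM.

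Of 9 genes for Tribbles relatives and ATF4 turnover, 4 were higher and 2 lower (median 0.00), again near the 61.6% of all genes that were called. TRIB1 rose from 22.1 ± 2.53 to 115 ± 9.08 CPM (2.38) and TRIB2 fell from 17.4 ± 3.60 to 4.19 ± 2.06 CPM (-2.03), so that the 3 Tribbles genes did not go the same way. The kinase AKT1, which TRIB3 is known to bind, fell by 0.81 on the log2 scale and the acetyltransferase EP300 rose by 0.64.

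Of 33 other bZIP genes tested, 26 were higher and 5 lower (median 1.05, against 30.6% and 31.0% of all genes called and a median of 0.04). CREB3L3, a membrane-bound factor of fasting metabolism, rose most in the list (1.14 ± 0.404 to 76.4 ± 4.22 CPM). The others with the smallest p were MAFF (4.42 ± 0.879 to 42.9 ± 5.39 CPM) and MAFG (19.9 ± 1.60 to 80.8 ± 10.4 CPM), small Maf factors without an activation domain, and BATF (6.06 ± 0.713 to 34.7 ± 0.675 CPM), a partner of JUN proteins. MAFK, NFIL3, FOSL1 and CEBPD, chosen after their values were seen, had higher log2 fold changes than MAFG (2.37, 2.25, 2.13 and 2.12 against 2.03). ATF1, CREB3L1, CREB3L4, DBP and TEF fell, with log2 fold changes from -1.38 for CREB3L1 to -0.46 for ATF1. The calls of CREB3L4 and TEF were each lost under 5 of 14 alternatives (highest edgeR adjusted p = 0.13 and 0.11), among them the fits without control library 2, without control library 3 and without indomethacin library 1, and for TEF without indomethacin library 2.

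Of 36 tested targets of ATF4 and CHOP, 30 were higher and 3 lower (median 1.28, against 30.6% and 31.0% of all genes called and a median of 0.04). Beside the stress cytokine GDF15, the tRNA synthetase WARS1 and the transporter subunit SLC3A2, with log2 fold changes of 4.33, 2.35 and 2.18, the death receptor TNFRSF10B, a CHOP target, went from 97.4 ± 7.11 to 427 ± 59.0 CPM (2.13). ALDH18A1 (-1.50), PSPH (-0.80) and GPT2 (-0.59), enzymes of proline, serine and alanine synthesis, fell. Other enzymes of the same routes were called higher, PYCR1 for proline (0.77) and PSAT1 for serine (0.58), the latter not without control library 1 or 3 (highest edgeR adjusted p = 0.079). FGF21, INHBE and NARS1 were not called, with FGF21 at 0.871 ± 0.390 and 0.716 ± 0.420 CPM. INHBE was at 3.38, 11.2 and 3.23 CPM in control and 9.10, 6.99 and 6.05 CPM in indomethacin libraries, and without control library 2 it was called higher (1.12, edgeR adjusted p = 0.0017). Of 8 mitochondrial chaperones and proteases linked to ATF5, 5 were higher and 1 lower (median 0.35), with 3 to 5 higher over 14 alternatives. Among all genes tested, 30.6% were called higher and 31.0% lower, with a median of 0.04. Of the calls, YME1L1 (0.31), a protease of the inner membrane, was lost under 6, among them the fits without each control library and without indomethacin library 3, and DNAJA3 (0.39), a co-chaperone, under 1. The protease LONP1 (1.05), HSPA9 (0.95) and HSPD1 (0.69) rose, and HSPE1, the partner of HSPD1, fell by 0.74 on the log2 scale.

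**Figure D5:**
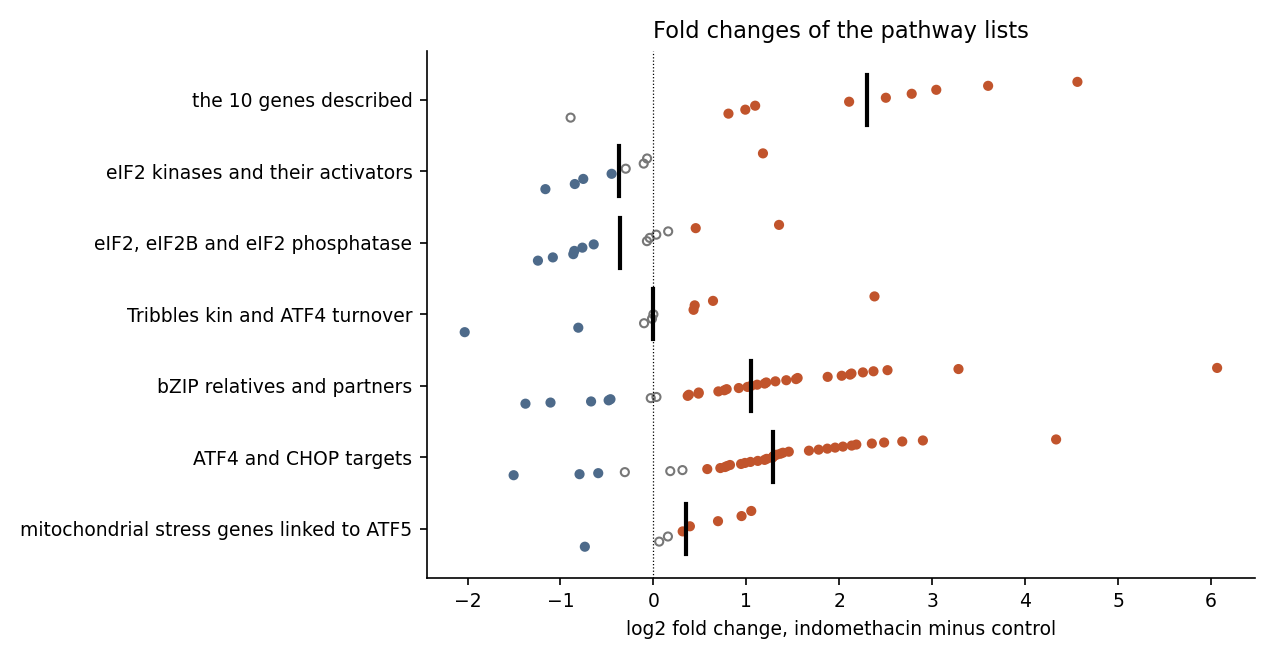
Log2 fold change (indomethacin minus control) of the 10 genes and of the tested genes of 6 pathway lists. Each point is a gene, orange where called higher, blue where called lower and open where not called at an edgeR adjusted p of 0.05, and the black bar is the median, from -0.37 for eIF2 kinases to 2.30 for the 10 genes.

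For each of the 10 genes, the protein-coding gene with the most similar profile among 9757 with a mean of 5 CPM or more was sought. Likeness was the root-mean-square difference of log2 CPM over the 6 libraries, each gene centred on its mean. The closest matches were ARPC5L to ATF4 (difference 0.03), TRNP1 to ATF5 (0.04), HRH1 to CEBPG (0.04) and RAB27B to JDP2 (0.07). RHOF and LYPD6B were nearest to CEBPB and NUPR1 (both 0.13), RASGRP3 to PPP1R15A (0.15) and MAP1LC3B2 to DDIT3 (0.17). DUSP1, a phosphatase of MAP kinases, was nearest to ATF3 (0.28) and shared its high control library 1, with 17.6, 5.36 and 7.73 CPM in control. TRIB3 had no close match, with BEST1 nearest at 0.40. MAP1LC3B2 has a near-identical copy, so its value is uncertain. RAB27B, nearest to JDP2, fell from 8.71, 10.1 and 7.68 CPM to 6.64, 3.87 and 2.94 CPM (log2 fold change -0.96, edgeR adjusted p = 0.0043). Each match was chosen by its values in these same libraries, so its direction was fixed by the choice. The fall of RAB27B is therefore no support for a fall of JDP2.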

How the data were processed

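Libraries were made from total RNA with a stranded kit after depletion of ribosomal RNA, per the labels' protocols. HISAT2 2.1.0, cutadapt 1.16 and featureCounts are named with build hg38, per the submitters' processing notes, without order or settings. The deposited tables hold the authors' raw counts per gene, 1 table per library, per the file headers. Strand setting, treatment of reads with several places and annotation release are not given in the sources used here. Of 60607 lines, 3 were dropped because the entry of 1 gene ran over several lines. Exons were taken from the coordinates in those tables, gene types and leaders from GENCODE 29, and symbols by gene ID from a name table that matched 60462 of the 60604 genes. No 2 libraries of a group agreed within counting error (chi-square over its degrees of freedom was 7.91 to 25.9).

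Genes were filtered by filterByExpr, scaled by TMM and tested with edgeR 4.0.16 (R 4.3.3) by the quasi-likelihood test, in a model of group alone, with Benjamini-Hochberg adjustment over the 17200 genes kept. Printed CPM are counts over total count times TMM factor, and standard errors are those the test implies. Alternatives were DESeq2 1.42.0, limma-voom (limma 3.58.1), RLE and upper-quartile factors, no mitochondrial genes, other filters, a block for replicate number, and fits that left out 1 library at a time. Level floors cover counting error only. The full exon length for levels was an alternative chosen after seeing the data. On simulated data with 200 changed genes and 16148 tested, edgeR recovered 98.5% of 4-fold, 82.1% of 2-fold and 37.3% of 1.5-fold changes, with 7 false among 152 calls. In the data 61.6% of genes were called, far more than were changed in the simulation, so these rates do not describe the fit above. The 10 genes and the pathway lists were chosen with earlier results of these data known. Named genes were all 10, the 4 of each list with the smallest p, comparison partners, genes sharing exons and the nearest profile of each. Others, such as the few that fell in a list, were picked after their values were seen.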

Additional observations from a re-analysis of the deposited data

How the results depend on the processing

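The 9 genes called higher kept their direction and their call under all 14 alternatives of test, scaling, filter, pairing and left-out library. JDP2 was called lower under 2 of them, so that the count of the 10 genes called lower went from 0 to 1 with limma-voom (log2 fold change -0.96) and to 1 without indomethacin library 1 (-1.39). With libraries left out in turn that count was 0 to 1 and JDP2 lay between -1.39 and -0.68. The log2 fold change of CREB1, which never passed, was -0.03 with DESeq2, -0.07 with no filter, and -0.07 to 0.07 with libraries left out in turn. PPP1CB, also not called, was at 0.08 with upper-quartile factors and 0.01 with the 1 CPM filter. With libraries left out in turn FGF21 ranged from -0.67 to 0.11 and INHBE from -0.02 to 1.12. Over 14 alternatives, 1 gene of the list of eIF2 kinases and regulators was called higher and 3 to 5 lower. Of the bZIP genes 24 to 26 were called higher and 3 to 5 lower, and of the targets 29 to 31 higher and 3 lower. The causes were not tested. Upper-quartile factors moved the median of all genes tested by 0.12 against TMM and the unfiltered fit moved it by -0.11, and higher calls were 56.7% and 46.5% of all calls against 49.7%. Whether replicate numbers pair the libraries could not be told from the counts. Deviations from the group means correlated by 0.02, 0.01 and 0.13 for numbers 1, 2 and 3. Control libraries 1 and 3 correlated best with the indomethacin library of their own number, and control library 2 with indomethacin library 1 (0.13). The fit with the replicate block called 5249 genes higher and 5352 lower, against 5264 and 5327, and left the calls of the 10 genes as they were. For ratios within libraries, exact exchange of labels within blocks gave p = 0.25, the smallest it allows. Low counts limit JDP2 and TRIB3.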
